A study of Homo sapiens with 30 samples.

Results

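The metallothioneins MT1A, MT1E, MT1F, MT1G, MT1M, MT1X, MT2A and MT3 were followed in 2 human glioblastoma cell lines during exposure to interferon-γ (IFN-γ), the cytokine through which T cells and natural killer cells act on tumor cells. These 8 genes, of the 61471 listed for each line, were taken by symbol. The family was picked because MT3 was strongly lower in U251 cells under IFN-γ, so the U251 values against Untreated are given as a description with no test, and MT3 of U251 is not tested in any comparison. U87-MG and U251-MG, called U87 and U251 below, are established lines of wild-type genotype per the labels, and the study's methods state that neither was authenticated independently after receipt. For each line the labels give 5 groups of 3 cultures, namely cells without IFN-γ (Untreated), cells after 3, 14 or 28 days of continuous IFN-γ (D3, D14 and D28), and cells collected on day 28 whose IFN-γ was withdrawn after 14 days (D28WO, the washout). The IFN-γ dose was 1 µg/mL per the labels. The labels date the Untreated collection to day 3, and the study's methods differ from them on this date and on the dose. No untreated culture of day 14 or 28 is among the samples. In comparisons of D14, D28 and D28WO with Untreated, IFN-γ and the added time in culture therefore cannot be told apart. The same holds between other groups collected on different days, such as D28WO against D14. Bulk RNA was sequenced, and the deposited values are TPM (transcript abundance scaled to the library total), which also correct for transcript length, so levels of different genes can be set side by side within a library.

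Metallothioneins are small cysteine-rich proteins that bind zinc and copper and buffer these metals in the cell, and they also bind cadmium and react with oxidants. MT2A and the MT1 genes are expressed in many tissues and are induced by zinc and cadmium through the transcription factor MTF1, which binds metal response elements in their promoters, and several of them also respond to glucocorticoids. MT3 is the brain form, known for neurons and astrocytes and first described as a growth inhibitory factor, and it responds little to metals. In bulk RNA a lower level per cell and a smaller number of cells with the transcript cannot be told apart.

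The 8 genes lie together on chromosome 16, between 56589074 and 56684196 of GRCh38, a stretch of 95.1 kb, and 7 of the 8 are on the plus strand (GENCODE 44). From one end to the other they are MT3 (56589074 to 56591088), MT2A (56608584 to 56609497), MT1E (56625475 to 56627112), MT1M (56632659 to 56633981), MT1A (56638666 to 56640087), MT1F (56657731 to 56660698), MT1G on the minus strand (56666730 to 56668065) and MT1X (56682470 to 56684196). All are annotated as protein-coding. The MT1 genes and MT2A are near-identical copies of each other, so reads can be shared among them, and the split of a value between 1 copy and the next is uncertain.

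The promoters of 2 of the 8 members, MT2A and MT1X, were in the RefSeq table used here (GRCh38.p14), and they are shown because the metal response element is the feature for which these promoters are known. Each sequence runs from 250 bases before to 50 bases after the start of the gene, at chr16:56608334-56608633 for MT2A and chr16:56682220-56682519 for MT1X, both on the plus strand and written 5′ to 3′. Capitals mark matches to the core of the metal response element, TGCNCNC, on either strand.
MT2A: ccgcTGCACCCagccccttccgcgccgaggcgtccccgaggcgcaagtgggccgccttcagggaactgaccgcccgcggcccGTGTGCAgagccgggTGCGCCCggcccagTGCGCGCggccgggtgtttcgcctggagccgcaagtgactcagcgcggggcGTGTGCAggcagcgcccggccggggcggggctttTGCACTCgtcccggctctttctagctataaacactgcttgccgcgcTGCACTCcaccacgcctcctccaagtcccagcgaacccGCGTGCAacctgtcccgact
MT1X: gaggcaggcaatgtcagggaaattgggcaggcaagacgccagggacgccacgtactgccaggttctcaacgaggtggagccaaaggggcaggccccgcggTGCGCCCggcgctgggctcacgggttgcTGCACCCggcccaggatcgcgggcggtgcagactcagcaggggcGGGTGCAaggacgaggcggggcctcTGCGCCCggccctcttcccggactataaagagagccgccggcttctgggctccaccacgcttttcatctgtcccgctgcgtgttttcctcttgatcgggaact

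The MT2A window held 8 matches and the MT1X window 4. Of 35116 promoters of this length, 55.9% held at least 1 match, 2.94% held at least 4 and 0.071% held at least 8. A match is a run of letters and not a measured binding site.

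Of the 30 samples, 28 libraries were used, 15 of U251 and 13 of U87, since 2 U87 columns that share a name could not be assigned. D3 and D14 of U87 therefore have 2 libraries each and every other group has 3. The study's methods state a minimum depth for all samples but not the depth of each library, so how low a level a value of 0 allows is not given here. Genes above 0 numbered 24223 to 28649 per library of U87 and 24450 to 30246 per library of U251. The Untreated libraries of U87 had 24396, 24223 and 25459, and no other U87 library had under 26096. In U251 the numbers were 24450 to 27187 in Untreated, 28955 to 30246 at D28 and 25633 to 26378 at D28WO. The part of these differences in the results was not tested. GBP1, a guanylate-binding protein gene that IFN-γ induces, served as a check of the labels. In U251 it lay at 44.4 to 49.9 TPM in Untreated, 413 to 487 at D3, 141 to 156 at D14, 456 to 501 at D28 and 460.1 to 471 at D28WO. In U87 it lay at 31.3 to 39.6 TPM in Untreated, 209 to 240.2 at D3, 31.7 to 36.6 at D14, 244 to 256 at D28 and 213 to 232 at D28WO. The U87 libraries labelled D14 thus lay at the Untreated level of GBP1, and those labelled D28WO of both lines near the level at D28, against what these labels would lead to. IRF1, a transcription factor gene that IFN-γ also induces, lay at 109.8 to 134 TPM at D14 and 130.1 to 136 TPM in Untreated in U87, and at 457 to 545 TPM at D28WO. Results on D14 of U87 and on the washout of either line are tied to these labels, and whether labels or columns were exchanged between these groups was not tested. Comparisons of D3 and D28 with Untreated use none of these libraries other than for the spread, and fits that left out the D14 group of U87 or the D28WO group of either line, added after the data were seen, gave the same number of members past the threshold in every remaining comparison. Of the 7 glioma markers VIM, NES, SOX2, GFAP, S100B, OLIG2 and CD44, 6 were at a mean of at least 1 TPM in each line, with SOX2 near 0 in U87 (at most 0.411 TPM) and OLIG2 listed at 0 in Untreated U251.

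Differences are given as log2 fold changes on the log2(TPM + 1) scale ± standard error, from limma with all groups of a line in 1 fit, and this scale understates the change of low genes. The test covered every gene that averaged 0.5 TPM or more in a line, 22918 genes of U87 and 23667 of U251. A gene passed the test with a Benjamini-Hochberg adjusted p under 0.05 over all genes of the line, and was past the threshold of the study where the log2 fold change also exceeded 1 in size. Among the members, 7 of 8 passed this filter in U87 and 6 of 8 in U251. MT1A was listed at 0 in every library of both lines. In U251 MT1G was above 0 in 2 of 15 libraries, at 0.634 TPM at most, and MT1M in 4 of 15, all of them Untreated or D14 and none over 2.34 TPM. MT1M of U251 averaged 0.526 TPM and passed the filter through these groups alone (0.316 TPM without Untreated), so it is described with no test and counted in no comparison of U251. The comparisons with Untreated share the Untreated libraries, so their values are not independent of each other. The tables of the lines were normalized separately, and no test was run between them.

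In Untreated U251, MT3 stood among the abundant transcripts of the family, with 116.3, 110.2 and 121.7 TPM. After 3 days of IFN-γ its values were 7.09, 1.29 and 1.00 TPM, so that all 3 libraries lay far below the Untreated ones, with replicate 1 the highest of them. At D14 they were 53.7, 26.8 and 25.6 TPM, at D28 8.63, 9.35 and 12.05 TPM, and at D28WO 22.4, 19.7 and 14.4 TPM. The order of the means was Untreated (116 ± 5.75, SD, n = 3), D14 (35.3 ± 15.9), D28WO (18.9 ± 4.05), D28 (10.0 ± 1.80) and D3 (3.13 ± 3.44), and in this order no group overlapped its neighbour. Against Untreated the log2 fold changes of MT3 were -5.13, -1.77, -3.42 and -2.58 at D3, D14, D28 and D28WO, each ± 0.42. MT3 thus was lowest at the first time point, stood higher at D14 than at D3 by 3.36 on the log2 scale, and was lower again at D28 than at D14 by a difference of -1.65. After the washout the mean was 16.2% of the Untreated mean. The value at D3 moved most without replicate 1 of D3, to -5.77, and across the alternatives it ranged from -5.77 to -4.76.

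The glioma markers of U251 moved as well. Of the 7, at D3, D14, D28 and D28WO, 6, 5, 6 and 5 lay below all Untreated libraries and 1, 1, 1 and 1 above them. The share of all genes that lay so is not given here, and nothing is read from these counts. GFAP, which marks astrocytes, ranged from 1219 to 1309 TPM in Untreated, 300 to 365 at D3, 627 to 810 at D14, 222 to 255 at D28 and 570 to 574 at D28WO. S100B, another astrocyte marker, ranged from 174 to 199, 31.7 to 55.5, 111 to 131, 58.3 to 67.1 and 48.6 to 56.1 TPM in the same order. Both thus lay below Untreated in every group, as MT3 did, but GFAP was lowest at D28, and S100B was lower at D28WO than at D28 where MT3 was higher. VIM, NES and CD44 lay below Untreated at D3, D28 and D28WO too, whereas SOX2 was at 158 to 160.2 TPM in Untreated, 105 to 140 at D3 and 170 to 176 at D28WO, and OLIG2 was listed at 0 in Untreated and at 0.796 to 1.33 TPM at D28. Of the 3 endothelial markers, the sum was 26.6 to 38.4 TPM in Untreated U251, 2.45 to 3.46 at D3, 9.79 to 21.4 at D14, 4.16 to 4.82 at D28 and 4.31 to 8.80 at D28WO. The cadherin CDH5 made up most of this sum in Untreated (25.2 to 31.0 TPM) while PECAM1 was at or under 2.38 TPM in every library. PECAM1 lay above Untreated at D28 alone (0.0763 to 1.71 and 1.84 to 2.38 TPM). The leukocyte list was almost wholly CD68, with CD3E at or under 0.308 TPM. CD68 was at 135 to 143 TPM in Untreated. It lay below all Untreated libraries at D14 (95.8 to 109 TPM) and D28WO (92.5 to 112 TPM). At D3 (76.8 to 136 TPM) and D28 (136 to 168 TPM) it overlapped Untreated. CD14 lay above all Untreated libraries in every other group, at 0.191 to 1.26 TPM in Untreated, 3.11 to 5.75 at D3, 1.87 to 2.31 at D14, 2.40 to 4.30 at D28 and 2.07 to 2.47 at D28WO, and PTPRC did so at D28 (0.219 to 1.36 TPM, beside at most 0.181). The epithelial list summed to at most 2.90 TPM. The part of these markers in the MT3 result was not tested.

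**Figure D1:**
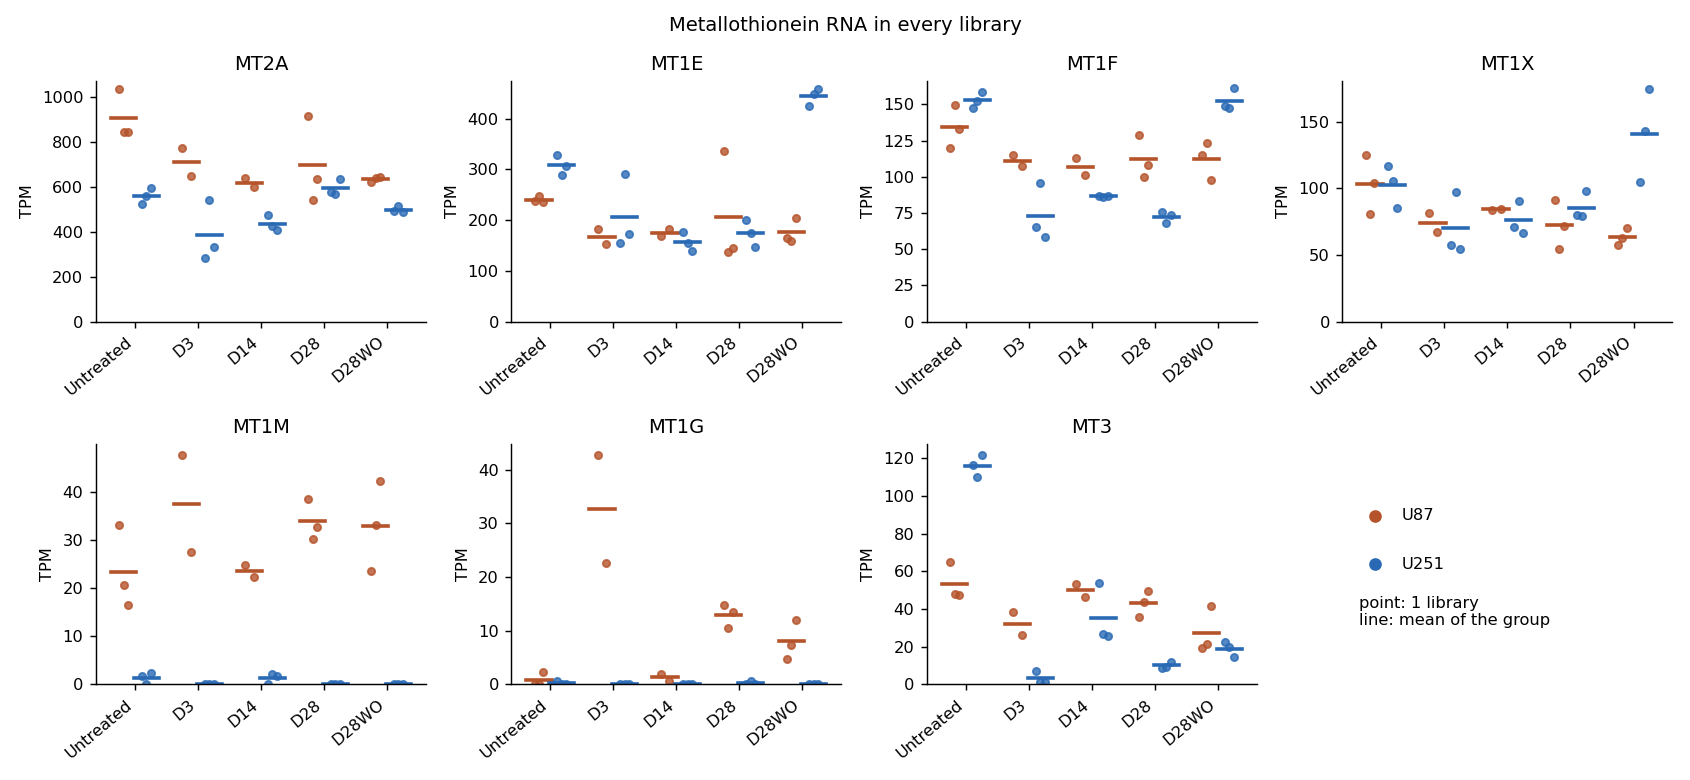
Level of each metallothionein other than MT1A, which is listed at 0 throughout, in every library (y axis, TPM, linear) by group (x axis), with U87 in brown and U251 in blue. Each point is 1 library and each short line is the group mean. MT3 of U251 lies at 110.2 to 121.7 TPM in Untreated and 1.00 to 7.09 TPM at D3, and MT1G of U87 at no more than 2.22 TPM in Untreated and 22.6 and 42.7 TPM at D3.

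The other members of U251 showed smaller differences from Untreated, and the mean of MT2A, MT1E and MT1F was lower at D3 and D14. MT2A, the most abundant metallothionein of both lines, was at 525, 560 and 596 TPM in Untreated, 285, 543 and 333 TPM at D3, 473, 427 and 408 TPM at D14, 575, 569.7 and 634 TPM at D28 and 490.4, 516 and 489 TPM at D28WO. Its D14 and D28WO libraries all lay below Untreated, while the D3 and D28 groups overlapped it. The log2 fold changes were -0.59, -0.36, 0.08 and -0.17 (each ± 0.16) at D3, D14, D28 and D28WO. Across the alternatives the value at D28 ranged from -0.04, with median-ratio size factors, to 0.30.

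MT1E, a copy that is abundant in both lines, was at 328, 289.7 and 307 TPM in Untreated U251, 155, 291 and 173 TPM at D3, 177, 155 and 140.1 TPM at D14, 201, 174 and 148 TPM at D28 and 426, 448 and 458 TPM at D28WO. The D14 and D28 libraries lay below all Untreated libraries and the D28WO libraries above them. The log2 fold changes were -0.63, -0.97, -0.83 and 0.53 (each ± 0.18). MT1F was at 148, 152 and 159 TPM in Untreated, 65.0, 95.8 and 58.6 TPM at D3, 86.9, 86.4 and 87.04 TPM at D14, 75.4, 67.8 and 73.4 TPM at D28 and 149, 148 and 161 TPM at D28WO. Its D3, D14 and D28 libraries all lay below Untreated (-1.09, -0.81 and -1.07, each ± 0.13), and its D28WO libraries overlapped Untreated (-0.0042 ± 0.13).

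MT1X, another member of the MT1 group, ranged from 85.0 to 117 TPM in Untreated, 54.8 to 97.3 at D3, 66.2 to 90.5 at D14, 78.9 to 97.9 at D28 and 104 to 174 at D28WO, and every group overlapped Untreated. Its log2 fold changes were -0.58, -0.43, -0.25 and 0.43 (each ± 0.22). In D3 of U251, replicate 2 stood apart from the other libraries of its group in each of these 4 genes and was the highest. Without it the log2 fold changes at D3 were -0.91 for MT1E, -1.30 for MT1F and -0.86 for MT2A.

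Described by size alone, with no p, 2, 1, 2 and 1 of 5 members of U251 stood more than 1 below Untreated on the log2 scale at D3, D14, D28 and D28WO, beside 5.65%, 2.04%, 4.23% and 4.83% of all genes. They were MT3 at each time, and MT1F at D3 and D28. None stood more than 1 above, beside 11.6%, 6.91%, 14.3% and 5.57% of all genes. Because the family was picked on this contrast, nothing is read from these counts. MT1M is left out of them, and its values were -1.07 ± 0.45 at D3, D28 and D28WO, where it was listed at 0, and -0.05 ± 0.45 at D14. The median log2 fold change of the 5 members was -0.63, -0.81, -0.83 and -0.0042, and that of all genes tested was 0.13, 0.096, 0.16 and 0.015. Each change of a member is therefore lower by this amount relative to all genes. With no filter on low values the median of all genes was 0.031, 0.049, 0.089 and 0.

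**Figure D2:**
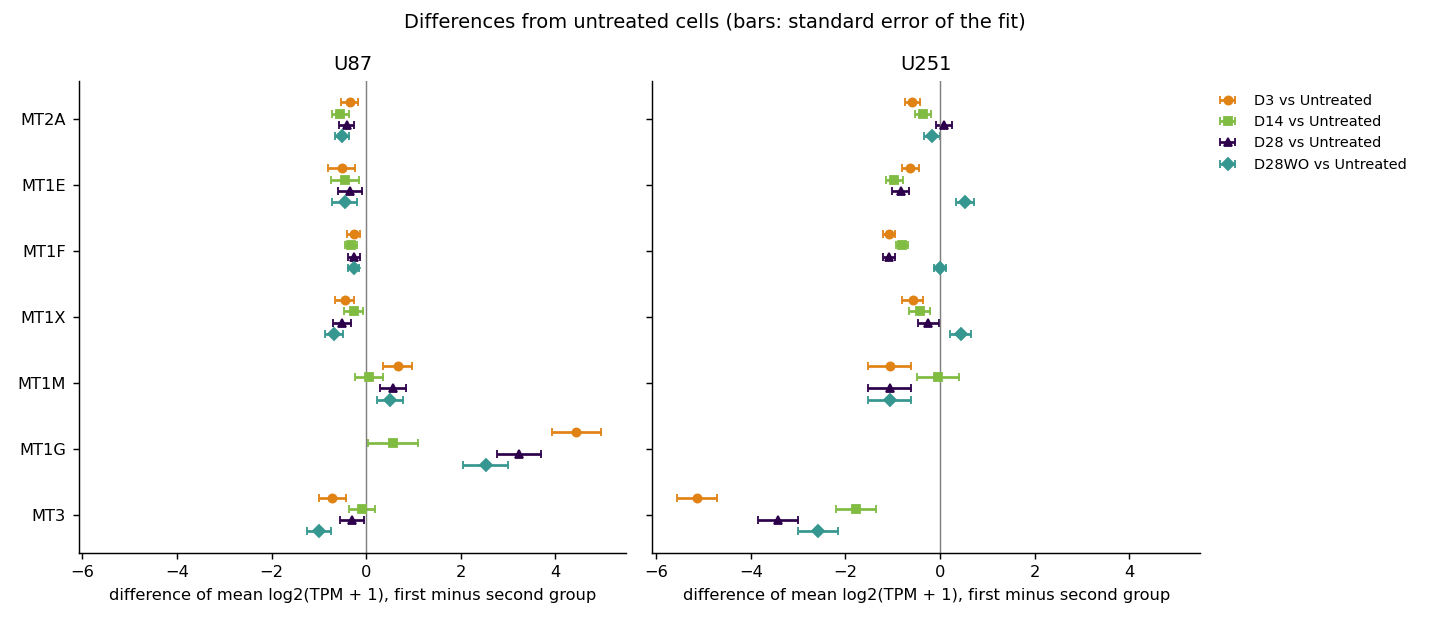
Difference of the mean log2(TPM + 1) from Untreated (x axis) of each metallothionein that passed the filter (y axis) at D3, D14, D28 and D28WO, with 1 panel for each line. Points are limma estimates, bars are ± 1 standard error and the vertical line marks no difference. MT1G of U87 stands at 4.44 at D3 and MT3 of U251 at -5.13.

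The washout comparison of U251, which the choice of the family did not use, showed higher MT1E, MT1F and MT1X in the libraries labelled D28WO than in those labelled D28. MT1E rose 1.35 ± 0.18 on the log2 scale from D28 to D28WO (limma, Benjamini-Hochberg adjusted p = 9.2e-05), and its mean at D28WO was 255% of that at D28. For MT1F the difference was 1.07 ± 0.13 (limma, adjusted p = 3.6e-05), or 211% of the D28 mean. MT1X rose by 0.69 ± 0.22 (limma, adjusted p = 0.0324). The D28WO libraries of each of these 3 genes lay above all D28 libraries, as they did for 16.1% of all genes. The rise of MT1X was the least stable, since its adjusted p exceeded 0.05 in 7 of 13 alternatives and reached 0.137 without D28WO replicate 3, where the log2 fold change was 0.52. MT2A was lower in every D28WO library than in every D28 library, with a difference of -0.25 ± 0.16 that did not pass the test (limma, adjusted p = 0.288). MT1M was listed at 0 in both groups. Of the 4 members tested, 3 rose beside 10.3% of all genes, 2 of these past the threshold beside 1.12%, and none fell beside 18.8% (none also at an unadjusted p under 0.05 in limma). The median of all genes was -0.12 in this comparison, so relative to all genes the rises were 1.47, 1.19 and 0.81. With no filter on low values that median was -0.074. With MT3 included, the median of the 5 members was 0.84. MT3 itself, described only, was 0.84 ± 0.42 higher at D28WO than at D28, at 188% of the D28 mean. Of the 7 glioma markers of U251, 2 lay above all D28 libraries at D28WO and 3 below them. Of all genes 16.1% lay above, and the share below is not given here. GFAP was at 222 to 255 TPM at D28 and 570 to 574 at D28WO, and SOX2 at 109.7 to 122 and 170 to 176 TPM, while NES, S100B and OLIG2 were lower and VIM and CD44 overlapped. The leukocyte list summed to 139 to 172 TPM at D28 and 94.5 to 114 at D28WO, and the endothelial and epithelial sums overlapped. The part of these markers in the rises was not tested.

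D28WO can also be set against D14, the time at which IFN-γ was withdrawn. MT1E rose by 1.50 ± 0.18 (limma, adjusted p = 3.8e-05), MT1F by 0.81 ± 0.13 (adjusted p = 0.000375) and MT1X by 0.86 ± 0.22 (adjusted p = 0.0107). MT1X missed the threshold on the adjusted p without D28WO replicate 3 (0.69, adjusted p = 0.0536). Thus 3 of 4 members rose beside 10.6% of all genes, 1 of them past the threshold beside 1.78%, and none fell beside 15.8% (none also at an unadjusted p under 0.05 in limma). MT2A did not pass the test (0.19 ± 0.16, adjusted p = 0.430), although its D28WO libraries lay above all D14 libraries. The MT1E and MT1F results of both comparisons passed the test in all 13 alternatives tried, with a highest adjusted p of 0.00257. MT3 was lower than at D14 (-0.81 ± 0.42, described only). The IFN-γ target GBP1 stood at 456 to 501 TPM at D28 and 460.1 to 471 TPM at D28WO, and at 141 to 156 TPM at D14.

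From D3 to D14 and from D14 to D28, none of the 4 members of U251 passed the test in either direction. In these comparisons 12.8% of all genes rose and 12.6% fell, then 11.3% rose and 9.48% fell. At an unadjusted p under 0.05 in limma, 1 of the 4, MT1F, was higher and none lower from D3 to D14, and 1, MT2A, was higher and none lower from D14 to D28. The value nearest to a call was that of MT2A from D14 to D28 (0.44 ± 0.16, adjusted p = 0.0744). The difference of MT1F was 0.28 ± 0.13 from D3 to D14 (adjusted p = 0.135) and -0.26 ± 0.13 from D14 to D28 (adjusted p = 0.175).

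**Figure D3:**
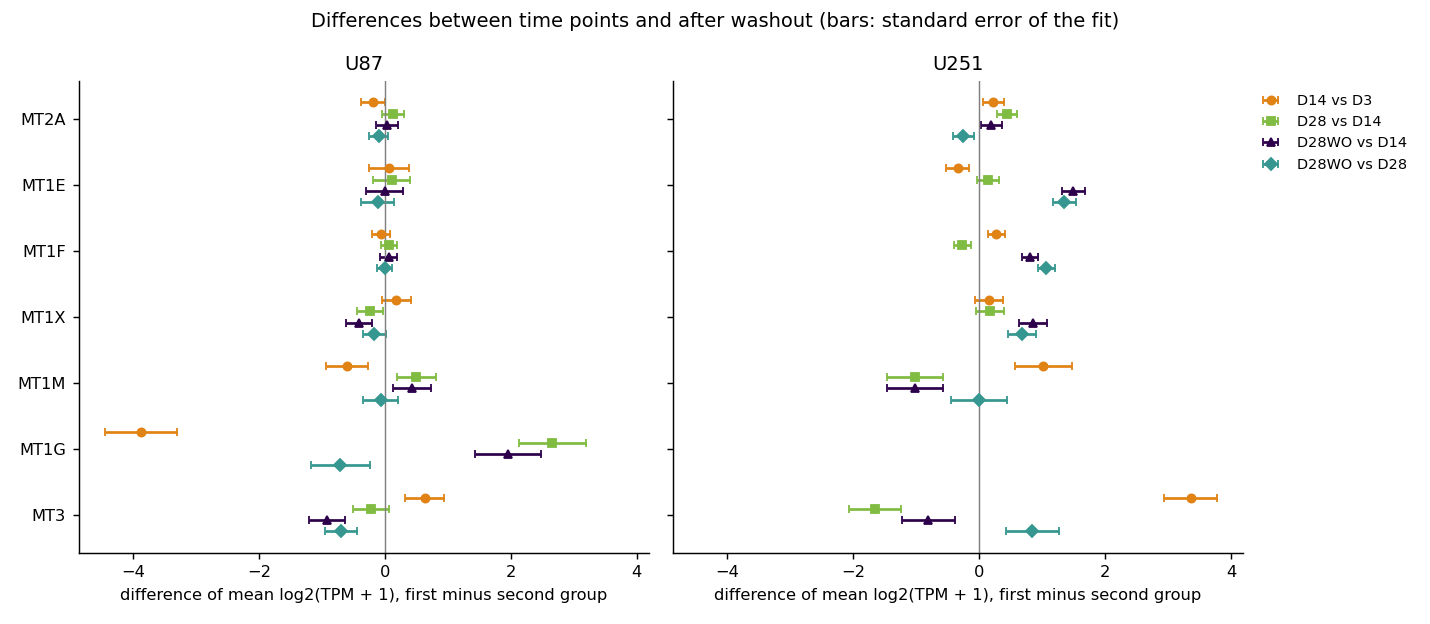
Log2 fold change on the log2(TPM + 1) scale (x axis) of each metallothionein that passed the filter (y axis) for D14 against D3, D28 against D14, D28WO against D28 and D28WO against D14 in each line. Points are limma estimates and bars are ± 1 standard error. In U251 MT1E and MT1F lie at 1.35 and 1.07 for D28WO against D28, and in U87 MT1G lies at -3.87 for D14 against D3.

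In U87 the member that changed most was MT1G, a copy that was almost silent without IFN-γ. It was listed at 0, 0 and 2.22 TPM in Untreated, and reached 42.7 and 22.6 TPM at D3. The D14 values were 1.92 and 0.648 TPM, those of D28 were 14.8, 10.6 and 13.6 TPM, and those of D28WO were 4.72, 7.25 and 11.98 TPM. The D3, D28 and D28WO libraries all lay above the Untreated and D14 libraries, D28 and D28WO overlapped each other, and D14 overlapped Untreated. MT1G rose by 4.44 ± 0.53 on the log2 scale at D3 (limma, adjusted p = 0.000219), by 3.23 ± 0.47 at D28 (adjusted p = 0.00068) and by 2.52 ± 0.47 at D28WO (adjusted p = 0.00121), each past the threshold, beside 5.85%, 6.77% and 12.8% of all genes. At D14 it stood at 0.57 ± 0.53 from Untreated and did not pass the test (adjusted p = 0.558). These sizes depend on the pseudocount because 2 Untreated libraries are at 0, and with 0.1 in place of 1 the value at D3 was 6.77. The 3 rises passed the test in all alternatives tried for them, with highest adjusted p of 0.0486, 0.0221 and 0.0187, each in the fit of only the compared groups. Markers of U87 differed from Untreated at these times too. At D3 GFAP and CDH1 lay above all Untreated libraries, and VIM, CD44 and CD68 below. At D28 GFAP and S100B lay above, and CD44 and CDH5 below. The part of these markers in the rises of MT1G was not tested.

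Like MT1G, GBP1 of U87 stood high at D3, D28 and D28WO and low at D14, where it was at its Untreated level. From D3 to D14 MT1G fell by 3.87 ± 0.58 (limma, adjusted p = 0.0020), and from D14 to D28 it rose by 2.66 ± 0.53 (adjusted p = 0.0139). D28WO was above D14 by 1.95 ± 0.53 (adjusted p = 0.0177), and these 3 changes were past the threshold beside 2.05%, 1.78% and 6.30% of all genes. D28WO did not differ detectably from D28 (-0.71 ± 0.47, adjusted p = 0.344). The calls that involve D14 rest on 2 libraries at low TPM. With a pseudocount of 0.1 the adjusted p was 0.0515, 0.126 and 0.110 for these 3 comparisons, and the rise from D14 to D28 was lost without either D14 library (adjusted p = 0.0507 without replicate 2 and 0.146 without replicate 3). Without D14 replicate 3 the difference of D28WO from D14 had an adjusted p of 0.149, and without D28WO replicate 3 one of 0.0594.

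MT1H, which is not among the 8 members and is a near-identical neighbour of MT1G, was measured at 0, 0.749 and 0 TPM in Untreated U87 and at 10.0 and 5.94 TPM at D3. It was at or under 0.587 TPM at D14, where MT1G was also low. Unlike MT1G it was also at or under 0.480 TPM at D28 and listed at 0 at D28WO. It passed the filter on low values only through D3 (a mean of 0.165 TPM over the other libraries), so no test of it is given. Reads may be shared between these copies. Of the 13 other metallothionein genes and pseudogenes, 2 passed the filter in U87 (MT1H and the pseudogene MT1JP) and 1 in U251 (MT1JP), and 10 and 11 were listed at 0 throughout.

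The abundant members of U87 stood lower than Untreated in most groups, and the falls that passed the test came at D28WO. MT2A was at 1033, 844 and 844 TPM in Untreated, 771 and 649 TPM at D3, 637 and 599 TPM at D14, 914, 539 and 633 TPM at D28, and 621, 638 and 642 TPM at D28WO. Every D3, D14 and D28WO library lay below Untreated, and D28 overlapped it through replicate 1. The fall at D28WO was -0.51 ± 0.16 (limma, adjusted p = 0.0201), while at D3, D14 and D28 the values were -0.35, -0.55 and -0.41 (adjusted p = 0.189, 0.0912 and 0.0763). With quantile normalization the value at D28WO was -0.11 (adjusted p = 0.556), and the adjusted p was 0.0778 without Untreated replicate 1 and 0.0570 without D28WO replicate 1.

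MT3 of U87, which the choice of the family did not use, was at 64.8, 48.0 and 47.6 TPM in Untreated, 38.2 and 26.3 TPM at D3, 53.2 and 46.5 TPM at D14, 35.5, 43.9 and 49.6 TPM at D28 and 19.6, 21.2 and 41.3 TPM at D28WO. The D3 and D28WO libraries lay below Untreated. Only the fall at D28WO passed the test (-1.01 ± 0.25, limma, adjusted p = 0.00757), to 51.2% of the Untreated mean, and at D3 the difference was -0.72 (adjusted p = 0.104). It lay near the threshold of 1, and was under it without Untreated replicate 1, D28WO replicate 1 or D28WO replicate 2. D28WO was also below D14 (-0.92 ± 0.28, adjusted p = 0.0332), which was lost in 7 of 12 alternatives, with an adjusted p of up to 0.185 and of 0.0770 with the replicate number as a block. Of the 7 glioma markers of U87, 3 lay below all Untreated libraries at D28WO (VIM, NES and CD44) and 2 above. Of all genes 16.6% lay below, and the share above is not given here. OLIG2 was at 4.94 to 9.49 TPM in Untreated and 22.0 to 32.0 at D28WO, and GFAP at 2.33 to 6.90 and 11.8 to 16.8 TPM. The epithelial list, mostly EPCAM in Untreated, summed to 3.90 to 9.87 TPM in Untreated and 1.91 to 4.02 at D28WO, with EPCAM at 3.14 to 9.29 and 1.03 to 1.38 TPM and CDH1, which was higher, at 0.135 to 0.588 and 0.707 to 2.20 TPM. The leukocyte list, almost wholly CD68, summed to 311 to 376 and 215 to 246 TPM, and the endothelial list to at most 3.37 TPM in either group. The part of these markers in the results of U87 at D28WO was not tested.

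MT1X was at 125, 80.8 and 104 TPM in Untreated and 57.1, 62.8 and 70.2 TPM at D28WO, groups that did not overlap, and fell by 0.68 ± 0.18 (limma, adjusted p = 0.0111). At D28 its value was -0.51 ± 0.18 (adjusted p = 0.0644). MT1E ranged from 235 to 247 TPM in Untreated and from 154 to 204 TPM at D3, D14 and D28WO, below every Untreated library, and did not pass the test (-0.52, -0.45 and -0.45 at D3, D14 and D28WO, with adjusted p of 0.242, 0.388 and 0.182). D28 replicate 1 stood apart, with 336 TPM of MT1E beside 138 and 146 TPM in the other libraries of its group. MT1F ranged from 97.7 to 150 TPM over all libraries and did not pass the test in any comparison, and neither did MT1M, which ranged from 16.6 to 47.6 TPM.

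Of the 7 members tested in U87, 1 rose at D3 beside 12.4% of all genes and none fell beside 4.28%. None rose or fell at D14 beside 4.14% and 1.02%. At D28 1 rose beside 17.2% and none fell beside 6.55%. At an unadjusted p under 0.05 in limma, 2 were lower at D3, 2 lower and none higher at D14, and 3 lower at D28. At D28WO 1 rose beside 28.6% and 3 fell beside 13.4%, with MT1G higher and MT3 lower past the threshold beside 12.8% and 2.12%. Groups that did not overlap and lay lower than Untreated were found for 4 members at D3, 3 at D14, none at D28 and 4 at D28WO, beside 12.6%, 9.94%, 10.4% and 16.6% of all genes. From D3 to D14 1 fell beside 3.32%, from D14 to D28 1 rose beside 2.94%, and from D28 to D28WO none passed beside 9.90% higher and 8.44% lower (at an unadjusted p under 0.05 in limma, none higher and 1 lower). From D14 to D28WO 1 rose beside 14.3% and 1 fell beside 11.5%. Against Untreated the median of the 7 members was -0.35, -0.27, -0.31 and -0.45 at the 4 times, and that of all genes was 0.20, 0.15, 0.19 and 0.25. Relative to all genes the changes at D28WO were 2.27 for MT1G, -1.26 for MT3, -0.93 for MT1X and -0.76 for MT2A. These values depend on the median of all genes, which was 0.11 with no filter on low values. With quantile normalization, where that median was -0.019, the value of MT2A at D28WO was -0.11.

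As a share of the summed TPM of the 8 genes, MT2A stayed between 58.3% and 61.9% in the group means of U87, and MT1E between 14.4% and 16.8%. MT1G went from 0.0535% in Untreated to 2.74% at D3. In U251 the make-up differed more between groups. MT2A made up 45.1% in Untreated, 52.2% at D3, 55.0% at D14, 63.4% ± 2.24 (SD, n = 3) at D28 and 39.8% ± 1.82 at D28WO. MT1E made up 24.8% in Untreated, 18.7% ± 3.09 at D28 and 35.4% ± 0.279 at D28WO. MT3 made up 9.35% ± 0.270 in Untreated and 0.511%, 4.38%, 1.07% and 1.51% at D3, D14, D28 and D28WO. The summed TPM of U251 was 1242 ± 26.7 in Untreated and 740 ± 252, 793 ± 66.6, 935 ± 32.4 and 1254 ± 55.1 at D3, D14, D28 and D28WO. That of U87 was 1462 ± 131, 1166 ± 158 (n = 2), 1060 ± 33.4 (n = 2), 1176 ± 338 and 1053 ± 52.2 in the same order. The sum of the U251 washout thus overlapped that of Untreated while its make-up did not, with more MT1E and less MT3 in every library.

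**Figure D4:**
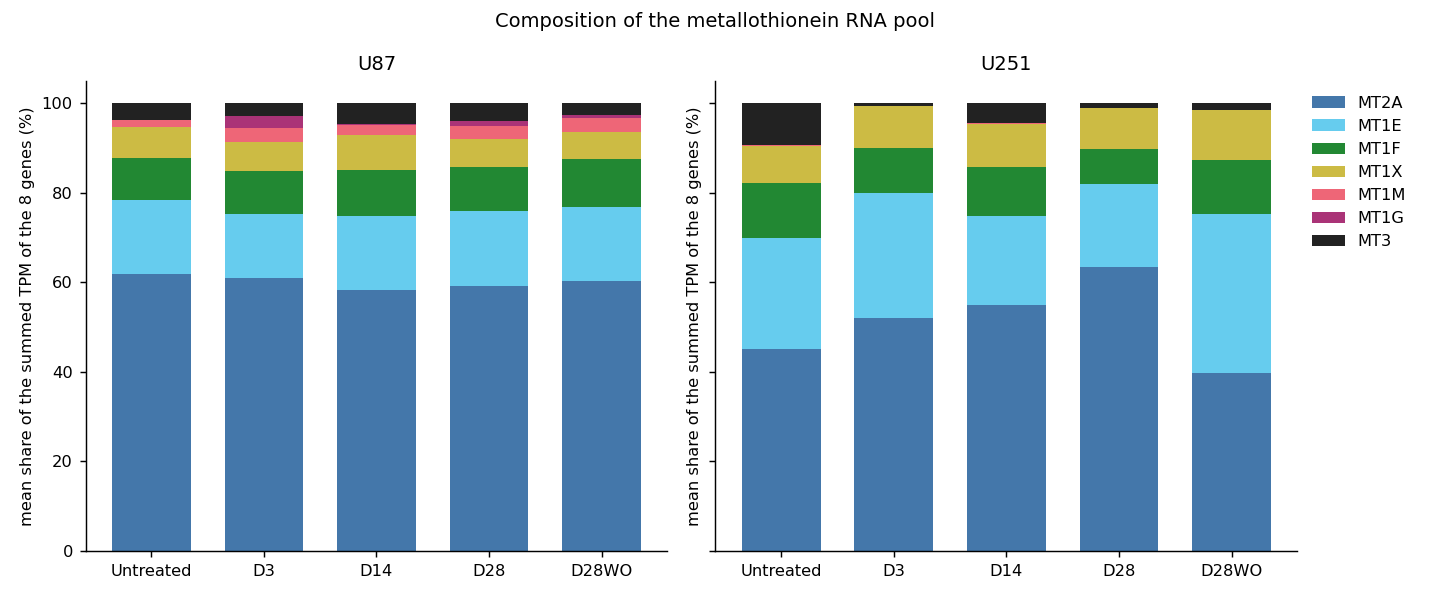
Mean share of each gene in the summed TPM of the 8 metallothioneins (y axis, percent) for each group (x axis) of both lines, drawn as stacked bars without error. In U251 the MT1E part is 35.4% at D28WO beside 18.7% at D28, and the MT3 part is 9.35% in Untreated and 1.51% at D28WO, while in U87 MT2A stays between 58.3% and 61.9%.

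Set side by side, the lines shared a lower MT3 at D28WO, at 16.2% of the Untreated mean in U251 and 51.2% in U87. They parted in MT1G, which was near 0 in U251 and rose in U87 at D3, D28 and D28WO, and in MT1E at D28WO, where the D28WO libraries lay above Untreated in U251 and below it in U87. The difference between the lines was not tested.

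Other genes of metal handling were counted by list against Untreated, in the order D3, D14, D28, D28WO. Beside these counts, 12.4%, 4.14%, 17.2% and 28.6% of all genes rose in U87 and 4.28%, 1.02%, 6.55% and 13.4% fell, and in U251 24.9%, 13.8%, 25.9% and 14.3% rose and 16.0%, 7.31%, 14.7% and 13.4% fell. Of the zinc exporters with MTF1, 9 of 11 were tested in each line, and 3, 1, 5 and 4 rose in U87 while 1 fell, at D28WO. In U251 4, 1, 4 and 2 rose and 3, 1, 2 and 0 fell. SLC30A10, a member of the zinc exporter family known for exporting manganese, rose in U87 from 1.73 ± 0.607 TPM to 7.15 ± 1.00 at D3 (1.60 ± 0.27, limma, adjusted p = 0.00245), 4.99 ± 0.0572 at D14 (1.16, adjusted p = 0.0338) and 8.80 ± 2.11 at D28 (1.85, adjusted p = 0.000307). At D28WO it stood at 2.80 ± 0.113 TPM, where it did not pass the test against Untreated (0.50, adjusted p = 0.112) and was below D28 by a difference of -1.34 (adjusted p = 0.00287). SLC30A3, which loads zinc into vesicles, rose in U251 from 0.736 ± 0.331 TPM to 2.78 ± 0.239 at D3 (1.14, adjusted p = 0.00929) and 3.29 ± 1.85 at D28 (1.24, adjusted p = 0.00569), and in U87 to 1.78 ± 0.446 TPM at D28 (1.06, adjusted p = 0.0115). TMEM163, a zinc effluxer, fell in U251 from 3.21 ± 0.111 to 0.745 ± 0.155 TPM at D3 (-1.27, adjusted p = 0.000372).

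Of the zinc importers, 11 of 13 were tested, with 1, 0, 2 and 1 higher and 0, 2, 2 and 5 lower in U87, and 2, 1, 2 and 0 higher and 4, 0, 3 and 5 lower in U251. SLC39A10 of U251 fell from 57.7 ± 1.34 TPM to 27.7 ± 5.15 at D3 (-1.05), 15.5 ± 2.61 at D28 (-1.84) and 23.2 ± 5.15 at D28WO (-1.30), with adjusted p of 0.000291, 1.7e-06 and 7.3e-05 (limma), and did not pass the test at D14 (-0.08, adjusted p = 0.800). SLC39A8, which brings in zinc and manganese, rose in U251 from 15.4 ± 2.95 TPM to 32.3 ± 1.65 at D14 (1.03, adjusted p = 9.8e-05) and 44.01 ± 1.29 at D28 (1.47, adjusted p = 9.5e-07), and at D28WO stood at 10.6 ± 0.141 TPM, below D28 by a difference of -1.95 (adjusted p = 2.6e-07). SLC39A8 thus differed between D28 and D28WO in the direction opposite to MT1E and MT1F.

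Copper transporters and chaperones (11 of 12 tested) counted 1, 1, 3 and 3 higher and 2, 0, 4 and 4 lower in U87, and 1, 0, 2 and 0 higher and 3, 1, 1 and 1 lower in U251. STEAP2, a metalloreductase of iron and copper, rose in U251 from 7.32 ± 0.921 to 16.8 ± 3.96 TPM at D28 (1.08, adjusted p = 0.00036). Genes responsive to NRF2, a transcription factor of the oxidative stress response, were tested in full (10 of 10). In U251 7, 5, 8 and 7 of them rose and 0, 0, 0 and 1 fell, with a median of 0.66, 0.21, 0.60 and 0.45 beside 0.13, 0.096, 0.16 and 0.015 for all genes. From D28 to D28WO 1 rose and 6 fell, beside 10.3% and 18.8% of all genes. In the same comparison 0 rose and 2 fell of the zinc exporters, 1 and 3 of the zinc importers and 1 and 4 of the copper list. Heme oxygenase HMOX1 rose there from 59.6 ± 9.66 to 152 ± 4.05 TPM at D28 (1.35, adjusted p = 1.2e-06), and OSGIN1, an oxidative stress gene, from 22.8 ± 3.93 to 55.4 ± 5.45 at D3 and 64.5 ± 5.11 at D28 (1.25 and 1.47, adjusted p = 3.6e-05 and 8.3e-06). In U87 1, 0, 1 and 5 rose and 3, 2, 4 and 2 fell. From D28 to D28WO in U87, 6 rose and 0 fell, beside 9.90% and 8.44% of all genes.

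Glucocorticoid-responsive genes (7 of 8 tested) counted 2, 1, 2 and 2 higher and 1, 0, 0 and 2 lower in U87, and 3, 2, 1 and 1 higher and 3, 1, 3 and 2 lower in U251. From D28 to D28WO 4 of the 7 rose in U251 and none fell, beside 10.3% and 18.8% of all genes, and their median was 0.47 beside -0.12 for all genes. In U87 1 rose and 2 fell in this comparison, beside 9.90% and 8.44% of all genes. Their median there was -0.35 beside 0.039 for all genes. TSC22D3, known as GILZ, rose in U87 at D14 and D28WO past the threshold (1.42 and 1.13, adjusted p = 8.1e-05 and 2.3e-06), from 29.7 ± 1.60 TPM to 81.1 ± 0.993 and 66.1 ± 4.19, and KLF9 from 7.38 ± 0.767 to 21.4 ± 1.07 TPM at D28WO (1.42, adjusted p = 1.1e-05).

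The genes whose log2 fold changes against Untreated over the 4 times were closest to those of MT3 in U251, by the root mean square difference, were EHF (0.21), CDH5 (0.64), ARSF (0.65), CITED1 (0.70) and SCNN1B (0.71). The transcription factor EHF stood at -4.99, -1.79, -3.52 and -2.97 at D3, D14, D28 and D28WO, beside -5.13, -1.77, -3.42 and -2.58 for MT3. For MT2A the closest genes in U87 were SDHC (0.049), NT5E (0.053), HNRNPA1 (0.055), JSRP1 (0.061) and ADGRV1 (0.068). In U251 they were ENSG00000279673 (0.041), IGFBP6 (0.069), GRK4 (0.071), TIMM29 (0.073) and FZD4-DT (0.077). The difference at a single time could be larger, as for FZD4-DT at D14 (-0.21, beside -0.36 for MT2A). These are descriptions over 4 differences that share the Untreated libraries.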

How the data were processed

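RNA of 30 cultures of U87 and U251 was sequenced as paired-end TruSeq libraries, and 28 libraries were used. The authors deposited TPM values, 1 table per line, after FastQC, Trim Galore, alignment with STAR and counting with featureCounts on GRCh38, as the submitters' processing notes name these tools. How TPM was computed is not given in the sources used here. The notes and the methods name edgeR for normalization, and edgeR was not run here because the deposited values are not counts. The totals of all libraries are equal and the study's methods give only a minimum depth, so the depth of each library is unknown, no interval for counting error is given, and the precision rests on the spread between cultures. The 2 columns of the U87 table with the same name were not used.

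Groups follow the sample titles, and the group labelled D28W is called D28. The columns were matched by library name. The members and gene lists were chosen with earlier results of these data known. Values were taken as log2(TPM + 1), a filter of a mean of at least 0.5 TPM was applied, and limma 3.58.1 (R 4.3.3; lmFit, then eBayes with trend) was fitted with the 5 groups of a line together, with adjustment over all genes of the line. The U251 differences from Untreated were counted by size alone, and MT1M of U251 and MT1H of U87, which pass the filter only through the groups where they are high, were given no test, a choice made after their values were seen. The study's limits (adjusted p under 0.05, absolute log2 fold change over 1) were kept. Named genes are the 8 members, up to 4 genes per list and line past these limits against Untreated, and the 5 genes nearest to MT3 in U251 and to MT2A in each line; MT1H came under the list of other metallothioneins. The procedure was tested on simulated data. With 200 genes moved by 1.5 log2 units, 85.0% came back as calls, with 7 false calls for D3 against Untreated in U87 (22918 genes), and 87.5% with 9 false calls in U251 (23667 genes). Promoters were searched on both strands, and matches to other motifs are not reported here. Tables and figures were made with Python 3.11.15, numpy 2.4.6 and pandas 2.3.3.

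Same-numbered libraries of different groups did not deviate together (correlation -0.058 to 0.0472 in U87 and -0.0375 to 0.048 in U251), so the replicate number served as a block only in an alternative. Other alternatives were a pseudocount of 0.1, median-ratio size factors, quantile normalization, no filter, a stricter filter (1 TPM), a fit of only the 2 compared groups, the adjusted p alone, each library left out in turn, and, added after the data were seen, the D14 group of U87 or the D28WO group left out.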

Additional observations from a re-analysis of the deposited data

Results flagged for a closer look

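MT1E and MT1X moved in opposite directions in the lines around the washout. From Untreated to D28WO, MT1E had a log2 fold change of -0.45 in U87, where every D28WO library lay below every Untreated library, and of 0.53 in U251, where every D28WO library lay above. From D14 to D28WO, MT1X had a log2 fold change of -0.41 in U87 and 0.86 in U251, again with no overlap between the groups in either line. The difference between the lines was not tested, since their tables were normalized separately. In U87 neither value passed the test (limma, adjusted p = 0.182 for MT1E and 0.174 for MT1X), and D14 of U87 holds 2 libraries whose GBP1 level was that of Untreated cells.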

How the results depend on the processing

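Most values kept their direction and their side of the threshold under the alternatives, and none that was called changed sign. Of the counts of members past the threshold, 208 of the alternatives left the count within 1.5 times and 20 moved it. In U87 the count was 1 for D14 against D3 and for D28 against D14, and 0 for each with a pseudocount of 0.1 and with only the 2 compared groups. It was 2 for D28WO against Untreated, with 4 on the adjusted p alone, and 1 for D28WO against D14, with 0 at a pseudocount of 0.1 and 2 on the adjusted p alone. In U251, where the comparisons with Untreated count members by size alone, with no p, the count of D14 was 1, and 2 with median-ratio size factors. For D28WO against D14 it was 1, and 3 on the adjusted p alone, an alternative not run for the comparisons with Untreated of U251, where no p is used. Leaving out 1 library gave 1 to 2 members for D28WO against Untreated in U87 (1 without Untreated replicate 1, D28WO replicate 1 or D28WO replicate 2), 0 to 1 for D28 against D14 (0 without either D14 library), 0 to 1 for D28WO against D28 (1 without D28WO replicate 3) and 0 to 1 for D28WO against D14 (0 without D14 replicate 3). In U251 it gave 1 to 2 for D3 against Untreated (1 without D3 replicate 3), 1 to 2 for D14 against Untreated (2 without Untreated replicate 2 or D14 replicate 1) and 1 to 2 for D28WO against D14 (2 without D28WO replicate 1). Where a library of D3 or D14 of U87 is left out, 1 remains, which is assumed to vary like the other groups. The cause of these moves was not tested. Quantile normalization and median-ratio size factors brought the median of all genes against Untreated to between -0.03 and 0.07 in both lines. With the replicate number as a block the difference of MT3 between D28WO and D14 in U87 was -0.86 (adjusted p = 0.0770), and the block changed no other call among the members. TPM keeps no depth of a library, so the level that a 0 allows is not given, and copies that share reads cannot be separated.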
